A study of Mus musculus with 4 samples.

Results

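A set of 10 genes of the heat shock response was followed in adipocytes isolated from perigonadal white fat, the visceral depot beside the gonads, of male mice on a standard diet. They were taken by symbol: Hspa1a, Hspa1b, Hspa8, Hsph1, Dnajb1, Dnaja1, Hsp90aa1, Hspb1, Hspe1 and Bag3, which are 10 of the 55487 genes in the table. The set was chosen by the levels of Hspa1a and Hspa1b, which peaked in 1 CKO library, so those levels are given as a description with no test. Bulk RNA sequencing was made of 2 CKO libraries and of 2 libraries from control littermates labelled WT. The series title names the transcriptional repressor BLIMP1; what the abbreviation CKO stands for, the allele, any Cre line and the age of the mice are not stated in the labels. The labels do not tie libraries to animals, so every spread is that between libraries.

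Heat shock proteins are molecular chaperones. They bind unfolded stretches of other proteins, hold them in solution, and release them to fold or to be degraded. In unstressed cells the transcription factor HSF1 is held inactive by chaperones; when misfolded proteins accumulate, HSF1 is freed, forms trimers and binds repeats of the letters GAA and TTC in the promoters of its targets. Some family members are made at all times (Hspa8, Hsp90ab1), while Hspa1a and Hspa1b are the classical inducible genes. The label that groups the genes as cytosolic chaperones holds for most of them, but Hspe1 encodes the mitochondrial co-chaperonin and Bag3 a co-chaperone that works with HSP70 in autophagy.

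The promoters of 4 members are shown as examples picked by their levels. These are the inducible pair Hspa1a and Hspa1b and the small heat shock gene Hspb1, which peaked in CKO replicate 2, and Hspe1, which varied least. No link between the letters and the levels is read from this choice. Each window runs from 250 bases before to 50 bases after a RefSeq start site on GRCm38.p6 and is written 5′ to 3′ on the strand of the gene. Capitals mark matches of the shorter motif, read as GAANNTTC or TTCNNGAA, or of the longer motif, GAANNTTCNNGAA on either strand. The shorter motif lies inside the longer one and matches may overlap.
Hspa1a (chr17:34972107-34972406, minus strand): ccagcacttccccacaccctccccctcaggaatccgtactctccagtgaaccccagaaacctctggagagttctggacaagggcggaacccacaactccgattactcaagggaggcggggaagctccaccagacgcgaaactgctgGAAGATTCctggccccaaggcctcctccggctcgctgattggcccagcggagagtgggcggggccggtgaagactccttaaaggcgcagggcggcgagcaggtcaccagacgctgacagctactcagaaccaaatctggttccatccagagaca
Hspa1b (chr17:34959189-34959488, minus strand): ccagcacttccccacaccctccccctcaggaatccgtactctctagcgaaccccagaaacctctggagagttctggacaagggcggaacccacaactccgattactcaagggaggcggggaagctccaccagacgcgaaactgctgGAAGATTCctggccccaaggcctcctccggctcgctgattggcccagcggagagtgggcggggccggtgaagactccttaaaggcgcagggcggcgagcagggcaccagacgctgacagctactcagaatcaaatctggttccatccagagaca
Hspb1 (chr5:135887669-135887968, plus strand): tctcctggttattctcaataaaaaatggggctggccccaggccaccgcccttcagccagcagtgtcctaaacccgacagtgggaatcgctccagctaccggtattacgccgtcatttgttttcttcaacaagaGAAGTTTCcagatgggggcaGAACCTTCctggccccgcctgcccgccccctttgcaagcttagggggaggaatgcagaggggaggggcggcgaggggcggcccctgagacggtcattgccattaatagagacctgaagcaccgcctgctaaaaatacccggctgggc
Hspe1 (chr1:55087898-55088197, plus strand): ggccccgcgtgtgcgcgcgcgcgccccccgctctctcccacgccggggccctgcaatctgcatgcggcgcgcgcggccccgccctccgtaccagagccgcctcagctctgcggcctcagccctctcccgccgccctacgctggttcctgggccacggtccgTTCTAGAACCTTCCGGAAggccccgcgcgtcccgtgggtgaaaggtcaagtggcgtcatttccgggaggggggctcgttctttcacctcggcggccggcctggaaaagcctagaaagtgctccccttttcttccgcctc

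The windows of Hspa1a and Hspa1b had the same base at 296 of 300 positions, and both held a match of GAANNTTC whose first base lay at position -104 from the start site. Hspb1 held 2 such matches, at -117 and -97. Hspe1 held the longer motif GAANNTTCNNGAA in 2 overlapping matches at -89 and -84; the same stretch lies at -144 and -139 in the window of Hspd1, the chaperonin gene read in the opposite direction. Windows were found for 8 of the 10 members, and those of Hspa8 and Hsp90aa1 are not shown. The longer motif was found for 2 of these members, Hspe1 and Hsph1, and in 0.603% of all 32851 promoter windows. The shorter motif, counted as GAANNTTC or TTCNNGAA, was found for 7 members, all but Dnajb1, and in 15.1% of all windows. A member was counted if any of its windows held a match, and Dnaja1, Dnajb1 and Hsph1 had further windows. The shares count each window on its own, so they are not a like measure for the counts of members. A match describes the letters in the window and not a bound site.

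The libraries held 25260216 and 26742547 reads in CKO replicates 1 and 2 and 24152081 and 26145384 reads in WT replicates 1 and 2. WT replicate 2 stood apart on the first principal component, with a score of -118.2 against 84.4 and 38.0 for CKO replicates 1 and 2 and -4.18 for WT replicate 1. The adipocyte markers (10 of 10 tested, among them Adipoq and Plin1) summed to 1514166 and 1038765 reads in CKO, against 834863 and 385099 in WT, and none of them was at 0 in any library. Markers of macrophages (10 of 10) summed to 38022 and 93487 reads in CKO replicates 1 and 2 and to 167277 and 489014 in WT replicates 1 and 2. In bulk samples, fewer cells of a type and less RNA per cell cannot be told apart. Prdm1, which encodes BLIMP1, had 152 and 386 reads in CKO, against 514 and 1135 in WT.

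Hspa1a and Hspa1b, which encode the stress-inducible cytosolic HSP70, were high in CKO replicate 2 and low in the other 3 libraries. Levels are given as scaled reads, that is, reads divided by a size factor of the library. Hspa1a (chromosome 17, 34969190 to 34972156, minus strand, GRCm38) had 616 and 9692 scaled reads in CKO replicates 1 and 2 and 745 and 1326 in WT replicates 1 and 2. Hspa1b (chromosome 17, 34956436 to 34959238, minus strand) had 596 and 11054 in CKO, against 489 and 729.7 in WT. The groups overlapped for both genes, because CKO replicate 1 lay below both WT libraries for Hspa1a and between them for Hspa1b. CKO replicate 2 exceeded CKO replicate 1 by 15.7-fold for Hspa1a and by 18.5-fold for Hspa1b. Against the next highest library of the 4 it was 7.31-fold and 15.1-fold higher. Those were the differences of rank 3 and rank 1 among the 16871 genes tested, and they are what the genes were picked for. Hspa1a averaged 5154 ± 6418 in CKO and 1035 ± 411 in WT (SD, n = 2 each). The log2 difference, CKO minus WT, was 1.30 (SE 1.31) for Hspa1a and 2.10 (SE 1.37) for Hspa1b (n = 2 each). For Hspa1a, leaving out CKO replicate 1 gave 3.29 and CKO replicate 2 -0.69, and leaving out WT replicate 1 gave 0.88 and WT replicate 2 1.71. For Hspa1b, leaving out CKO replicate 1 gave 4.21 and CKO replicate 2 -0.0033, and leaving out WT replicate 1 gave 1.81 and WT replicate 2 2.39.

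The 2 genes lie 9951 bases apart and are near-copies, so their separate counts are uncertain. Of all stretches of 50 bases in the Hspa1a transcript, 58.8% also occur in the Hspa1b transcript, and for stretches of 100 bases the share was 47.1%. How reads that match both were counted is not stated; the sum of both genes is free of how such reads were split between them, but not of reads dropped or counted for both. The sum was 1210 and 22904 reads in CKO replicates 1 and 2 and 1188 and 1955 in WT replicates 1 and 2. As a share of all reads, the sum made up 0.00479% (95% Wilson interval 0.00453 to 0.00507) and 0.0857% (0.0845 to 0.0868) in CKO, against 0.00492% (0.00465 to 0.00521) and 0.00748% (0.00715 to 0.00782) in WT. These intervals cover counting error only. Reads of Hspa1b per read of Hspa1a were 0.967 and 1.14 in CKO, against 0.657 and 0.550 in WT, a ratio looked at after the values were seen. Hspa1l, the testis HSP70 gene that lies 546 bases beyond Hspa1a on the other strand, had 7 and 13 reads in CKO, against 6 and 13 in WT. The model Gm20481 overlaps Hspa1a on the opposite strand, and the strand setting of the counting is not given.

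**Figure D1:**
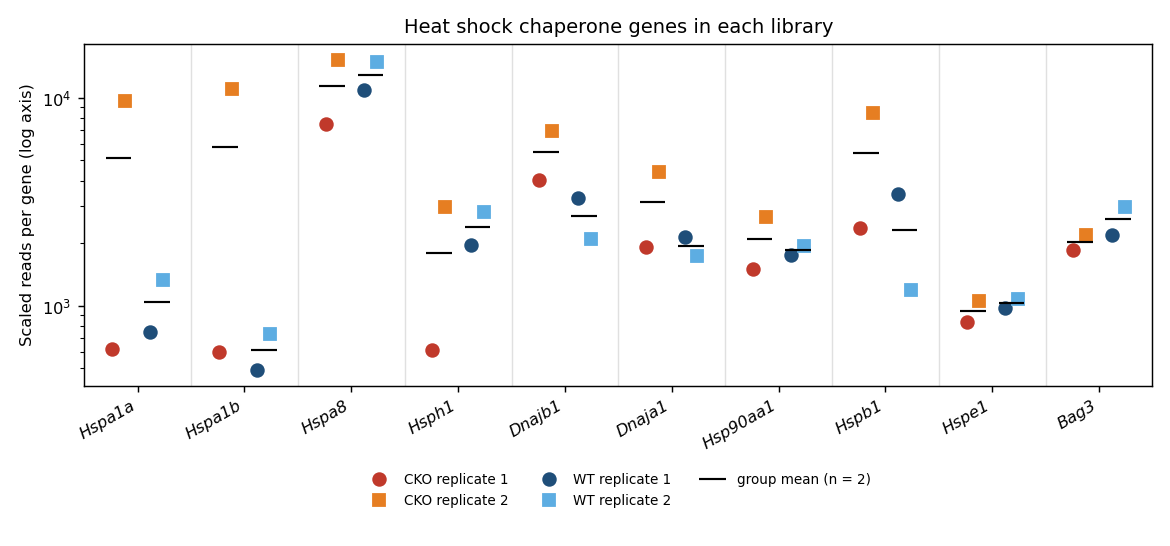
Scaled reads of the 10 heat shock genes (log axis) in CKO replicates 1 and 2 (red circles, orange squares) and WT replicates 1 and 2 (dark and light blue), with black bars for group means (n = 2 each). Hspa1a and Hspa1b stand at 9692 and 11054 in CKO replicate 2 and below 1400 in every other library.

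Hspa8, the constitutive HSP70 that chaperones newly made proteins, did not share that peak. It had 7522 and 15300 scaled reads in CKO replicates 1 and 2 and 10908 and 14820 in WT replicates 1 and 2. CKO replicate 1 was the lowest library and CKO replicate 2 exceeded WT replicate 2 by 1.03-fold, so the groups overlapped. The log2 difference was -0.25 (SE 0.47), with an adjusted p of 0.824 in limma. Hsph1, an HSP110 protein that exchanges the nucleotide of HSP70, also had its low value in CKO replicate 1. Its levels were 614 and 2984 scaled reads in CKO, against 1947 and 2830.5 in WT. The CKO libraries thus lay on either side of both WT libraries, 4.85-fold apart, and the log2 difference was -0.79 (SE 0.78, adjusted p 0.651 in limma). The small nucleolar RNA genes Snord14c, Snord14d and Snord14e overlap Hspa8 on the same strand.

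Within a library, reads of the inducible pair were set against those of Hspa8, which needs no scaling between libraries. The ratio of Hspa1a plus Hspa1b to Hspa8 was 0.161 and 1.36 in CKO replicates 1 and 2 and 0.113 and 0.139 in WT replicates 1 and 2. The ratio was above 1 in CKO replicate 2 and below 0.2 in the other 3 libraries; reads shared by Hspa1a and Hspa1b, if dropped or counted for both, would move each of these ratios. Hsp90aa1 to Hsp90ab1, the inducible over the constitutive HSP90, gave 0.125 and 0.111 in CKO, against 0.0944 and 0.0905 in WT. Here the CKO libraries lay close together and both above the WT libraries. Dnajb1 to Dnaja1 gave 2.10 and 1.58 in CKO, against 1.54 and 1.21 in WT. Bag3 to Bag1 gave 0.215 and 0.366 in CKO, against 0.336 and 0.581 in WT, with overlapping groups. These ratios are given as a description of each library, with no test.

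**Figure D2:**
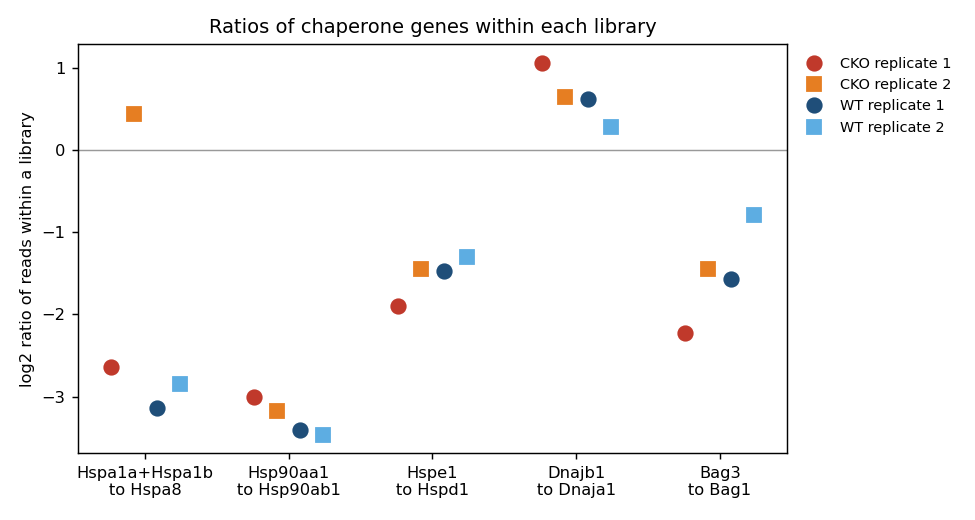
Log2 ratio of reads of 5 pairs of chaperone genes within each of the 4 libraries (CKO in red and orange, WT in dark and light blue); 0 means equal reads. The ratio of Hspa1a plus Hspa1b to Hspa8 is 0.44 in CKO replicate 2 and between -3.14 and -2.63 in the other 3 libraries.

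The J-domain proteins hand unfolded proteins to HSP70 and start its ATP cycle. Dnajb1, the HSP40 partner of inducible HSP70 (chromosome 8, 83608193 to 83612653), had 4035 and 6936 scaled reads in CKO replicates 1 and 2 and 3290 and 2103 in WT replicates 1 and 2. It was the only member with both CKO libraries above both WT libraries, a pattern seen in 23.9% of all genes tested. The mean was 5485 ± 2051 in CKO and 2696 ± 839 in WT (SD, n = 2 each). Its log2 difference of 1.01 (SE 0.40) had an unadjusted p of 0.0533 and an adjusted p of 0.459 in limma. The adjusted p was between 0.094 and 1 over the 12 other settings, and the log2 difference was 1.40 and 0.62 when CKO replicates 1 and 2 were left out in turn, and 1.33 and 0.69 for WT replicates 1 and 2. Dnaja1, a J-domain protein that works with Hspa8, had 1923 and 4403 scaled reads in CKO, against 2141 and 1732 in WT. CKO replicate 2 was 2.06-fold above the next library and the other 3 lay close together, so the groups overlapped (log2 difference 0.60, SE 0.45, adjusted p 0.567 in limma). Without CKO replicate 2 the log2 difference of Dnaja1 was -0.0016. Dnaja1 overlaps Smu1 and the model Gm6297 on the opposite strand.

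Hspb1, a small heat shock protein that holds unfolded proteins without ATP and guards the actin cytoskeleton, varied more than any member apart from the inducible pair. It had 2352 and 8469 scaled reads in CKO replicates 1 and 2 and 3440 and 1183 in WT replicates 1 and 2. The highest library was CKO replicate 2 and the lowest WT replicate 2, 7.15-fold apart, while CKO replicate 1 lay between the WT libraries. The log2 difference was 1.15 (SE 0.80) with an adjusted p of 0.543 in limma. It was 2.07 without CKO replicate 1, 0.22 without CKO replicate 2, 1.91 without WT replicate 1 and 0.38 without WT replicate 2. Hsp90aa1, the stress-inducible HSP90 that matures kinases and steroid receptors, had 1504 and 2680 scaled reads in CKO, against 1743 and 1945 in WT. The CKO libraries again enclosed the WT libraries, with a log2 difference of 0.12 (SE 0.35, adjusted p 0.881 in limma).

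Bag3 and Hspe1 varied least across the libraries. Bag3, which couples HSP70 to autophagy of damaged proteins (chromosome 7, 128523616 to 128546981), had 1861 and 2181 scaled reads in CKO replicates 1 and 2 and 2198 and 2996 in WT replicates 1 and 2. Both CKO libraries lay below both WT libraries, by a narrow margin, as 26.8% of all genes tested did. The log2 difference was -0.35 (SE 0.27, adjusted p 0.576 in limma), with -0.57 when WT replicate 1 and -0.13 when WT replicate 2 was left out. Hspe1 had 834 and 1052 scaled reads in CKO, against 971 and 1078 in WT, within 1.29-fold from the lowest to the highest library. Its log2 difference of -0.13 (SE 0.25, adjusted p 0.826 in limma) lay within its error. The annotated models of Hspe1 and Hspd1 overlap by their first bases on opposite strands, and 2610306O10Rik overlaps Bag3 on the same strand.

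Levels of different genes were compared as RPKM, reads per kilobase of exon scaled to the total reads of the library. Hspb1 was the highest member in CKO replicates 1 and 2 and WT replicate 1, and Hspa8 in WT replicate 2. Hspb1 stood at 90.2 and 339 in CKO replicates 1 and 2 and at 133 and 41.7 in WT replicates 1 and 2, and Hspa8 at 69.1 and 146.9 in CKO, against 101.1 and 125 in WT. Dnajb1 stood at 49.8 and 89.4 in CKO, against 40.9 and 23.9 in WT. Bag3 (28.7 and 35.2 in CKO, 34.2 and 42.5 in WT), Hspe1 (22.4 and 29.5 in CKO, 26.3 and 26.6 in WT) and Hsp90aa1 (15.1 and 28.2 in CKO, 17.7 and 18 in WT) had ranges that each overlapped that of Dnajb1; Hspe1 overlapped both Bag3 and Hsp90aa1, while Bag3 stayed just above Hsp90aa1. In WT replicate 2 Bag3 stood above Hspb1, and Bag3 and Hspe1 above Dnajb1. Dnaja1 (8.81 and 21.1 in CKO, 9.89 and 7.30 in WT) and Hsph1 (3.34 and 17.0 in CKO, 10.7 and 14.2 in WT) were below these 6 genes in both CKO replicate 1 and the WT libraries, with ranges that overlapped each other. The inducible pair moved through this order. Hspa1a was at 8.21 and 135 in CKO, against 10.01 and 16.3 in WT, and Hspa1b at 8.40 and 163 in CKO, against 6.96 and 9.47 in WT, on the same scale. In CKO replicate 2 Hspa1a thus stood just below Hspa8 and Hspa1b just above it. Exon length counts every annotated exon of a gene once, whether or not the cells use it.

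Over the 10 members, CKO replicate 2 was the highest library for 8, against 21.3% of all genes tested; the exceptions were Bag3 and Hspe1, highest in WT replicate 2. Of the 8 members other than Hspa1a and Hspa1b it was highest for 6. Without WT replicate 2 it was the highest of 3 libraries for 9 members, against 31.2% of all genes. CKO replicate 2 exceeded CKO replicate 1 at least 2-fold for 6 members and for 8.56% of all genes tested, and it exceeded each of the other 3 libraries at least 2-fold for 4 members (Hspa1a, Hspa1b, Hspb1 and Dnaja1) and for 0.925% of all genes. Since the peak in this library led to the choice of genes, nothing is read from these counts. CKO replicate 1 was the lowest library for 6 members, against 30.3% of all genes tested, WT replicate 2 for 3 (Dnaja1, Dnajb1 and Hspb1), against 38.2%, and WT replicate 1 for Hspa1b, against 15.1%. CKO replicate 1 was the highest library for 0 members, against 27% of all genes, and CKO replicate 2 the lowest for 0, against 16.4%. All 10 members together took 0.0864% (95% Wilson interval 0.0852 to 0.0875) and 0.267% (0.265 to 0.269) of reads in CKO replicates 1 and 2 and 0.111% (0.110 to 0.113) and 0.112% (0.111 to 0.113) in WT replicates 1 and 2. The 8 members without the inducible pair took 0.0816% (0.0805 to 0.0827) and 0.182% (0.180 to 0.183) in CKO, against 0.106% (0.105 to 0.108) and 0.104% (0.103 to 0.106) in WT.

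**Figure D3:**
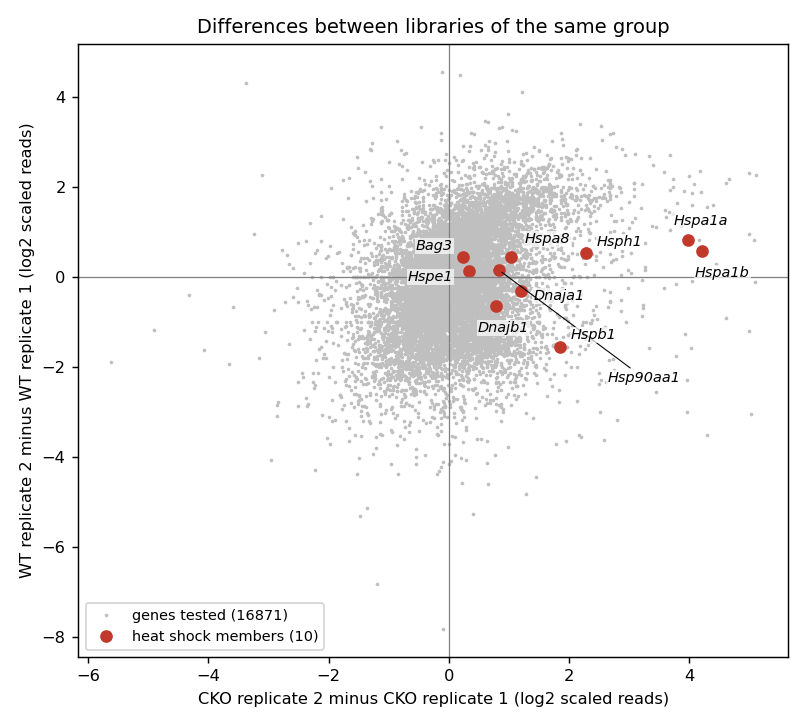
For each of 16871 genes tested (grey) and the 10 members (red), the log2 difference between the CKO libraries (replicate 2 minus 1, horizontal) against that between the WT libraries (replicate 2 minus 1, vertical). Hspa1a and Hspa1b lie at 3.97 and 4.21 on the horizontal axis; all members lie to the right of 0, and Hspb1 is at -1.54 on the vertical axis.

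Between the groups as a whole, no tested member was called. Of the 8 members with a test, limma called 0 higher and 0 lower after adjustment (threshold 0.05), and it called 0% of all genes tested in each direction; with voom weights 0 genes were called as well. At an unadjusted p under 0.05, 0 of these 8 passed, against 3.35% of all genes higher and 7.26% lower. The log2 difference was positive for 6 of 10 members and for 4 of the 8 without Hspa1a and Hspa1b, against 51.1% of all genes tested. Its median was 0.36 over the 10 members, -0.0011 over the 8 without Hspa1a and Hspa1b, and 0.015 over all genes. The median of the 10 members became -0.29 when CKO replicate 2 was left out and 0.29 when WT replicate 2 was left out.

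Other genes of the pathway were followed in 9 lists with 94 genes. Of these, 91 were tested, 33 with a positive and 58 with a negative log2 difference, against 51.1% positive over all genes tested. In limma 0 passed the adjusted threshold in either direction, as for 0% of all genes tested. At an unadjusted p under 0.05, 1 was higher and 1 lower, against 3.35% and 7.26% of all genes tested. The median of the 91 genes was -0.12. CKO replicate 2 was the highest library for 18 of the 91, close to the 21.3% of all genes, and WT replicate 2 for 45, against 40% of all genes. Hsf1, the factor that switches on the members, had 1108 and 1398 scaled reads in CKO replicates 1 and 2 and 1046 and 1252 in WT replicates 1 and 2, with overlapping groups (log2 difference 0.12, SE 0.25, adjusted p 0.839 in limma). Of 7 tested heat shock factors and regulators, Ier5, which helps to activate HSF1, was at -0.49 and Hikeshi, which carries HSP70 into the nucleus, at -0.29. Hsf2bp, a partner of HSF2 that overlaps Rrp1b on the opposite strand, had 7 and 10 reads in CKO, against 11 and 64 in WT.

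Among HSP90 and its co-chaperones, 7 of 14 were highest in CKO replicate 2, against 21.3% of all genes tested. Of these 14, 5 had a positive and 9 a negative log2 difference, against 51.1% positive over all genes tested. Hsp90ab1 had 12025 and 24252 scaled reads in CKO replicates 1 and 2 and 18473 and 21500 in WT replicates 1 and 2, low in CKO replicate 1 as Hspa8 was (log2 difference -0.22, SE 0.49, adjusted p 0.848 in limma). Unc45a, a myosin chaperone, and Fkbp5, a co-chaperone of the glucocorticoid receptor, had log2 differences of 0.63 and 0.87, and Ahsa1, which speeds the ATPase of HSP90, was at -0.46 (adjusted p 0.459, 0.459 and 0.552 in limma). For the other HSP70 genes, 3 of 8 were positive, Hspa12b (1.48) and Hspa2 (0.83) among them, and Hspa4l was at -0.54. Hspa12b is an endothelial member of the family, and its levels were 3688 and 5730 scaled reads in CKO, against 2899 and 934 in WT (adjusted p 0.459 in limma). Other J-domain genes were positive in 7 of 17, with Dnajb5 at 0.75, Dnajb2 at 0.86 and Dnajb14 at -0.77 (adjusted p 0.459, 0.470 and 0.459 in limma). Of 8 BAG and other HSP70 partners 6 were positive; Bag4 and Bag5 were at 0.97 and 0.50 and Hspbp1 at -0.54.

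Chaperones of other compartments include those of mitochondria and the secretory pathway. Of 14 mitochondrial and endoplasmic reticulum genes, 0 were highest in CKO replicate 2, against 21.3% of all genes tested. In WT replicate 2, 8 were highest, against 40%. Hspa5, the endoplasmic reticulum HSP70 known as BiP, had 13439 and 18087 scaled reads in CKO replicates 1 and 2 and 21454 and 47808 in WT replicates 1 and 2. Both CKO libraries lay below both WT libraries, as in 26.8% of all genes tested (log2 difference -1.04, SE 0.56, adjusted p 0.479 in limma). Calr, Hsp90b1 and Pdia6, which fold secreted proteins in the same compartment, were at -0.94, -0.81 and -0.73. Hspd1, the chaperonin that works with Hspe1, had 3117 and 2867 scaled reads in CKO, against 2683 and 2653 in WT, and the ratio of Hspe1 to Hspd1 reads was 0.268 and 0.367 in CKO, against 0.362 and 0.406 in WT. Hspa9, the mitochondrial HSP70, was at 0.27. All 8 subunits of TRiC, the cytosolic chaperonin that folds actin and tubulin, were negative and highest in WT replicate 2. That library was the highest for 40% of all genes tested, and 8244 of all 16871 genes were negative. The median of the 8 subunits was -0.27, with Cct2, Tcp1 and Cct5 at -0.32, -0.28 and -0.33 (adjusted p 0.561, 0.615 and 0.618 in limma). Of 9 companions of proteotoxic stress 7 were negative, against 8244 of all 16871 genes tested. Gadd45b was at -2.10, Hmox1, which breaks down haem, at -1.29 and the proteasome deubiquitinase Usp14 at -0.48 (adjusted p 0.459, 0.459 and 0.512 in limma).

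Immediate early genes are switched on by cells soon after a stimulus. CKO replicate 2 was the highest library for 12 of 20, against 21.3% of all genes tested, and the other 8 were highest in WT replicate 2; CKO replicate 1 was the lowest library for 13, against 30.3% of all genes. The median distance of the list from each gene's mean over the 4 libraries was -0.34 and 0.34 in CKO replicates 1 and 2 and -0.11 and 0.22 in WT replicates 1 and 2. For the 10 heat shock members, picked for the peak of Hspa1a and Hspa1b, it was -0.35 and 0.82 in CKO, against -0.12 and -0.11 in WT. For the 8 without that pair it was -0.325 and 0.611 in CKO, against -0.0737 and 0.0777 in WT. Klf4, a zinc finger factor, had 3778 and 9408.5 scaled reads in CKO, against 3812 and 3954.5 in WT. Egr2, an early growth response factor, had 48.1 and 93.3 in CKO, against 164 and 437 in WT (log2 difference -1.98, SE 0.64, adjusted p 0.459 in limma). Jund, a Jun family member that overlaps Gm11175, had 8 and 22 reads in CKO, against 9 and 4 in WT. Fos, the partner of Jun in AP-1, had 76439 and 122130 scaled reads in CKO, against 83155 and 110510 in WT (log2 difference 0.011, SE 0.83, adjusted p 0.996 in limma).

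Markers of vessels and blood were also often highest in the library of the peak. CKO replicate 2 was the highest library for 6 of 6 endothelial, 5 of 6 red blood cell and 5 of 6 smooth muscle markers, against 21.3% of all genes tested. It was the highest for 0 of 6 fibroblast, 0 of 5 mesothelial, 0 of 10 macrophage and 1 of 4 tested T and B cell markers. Summed reads of the endothelial markers were 50234 and 83156 in CKO replicates 1 and 2 and 39683 and 14215 in WT replicates 1 and 2; those of the red blood cell markers were 18880 and 33373 in CKO, against 8748 and 3100 in WT; those of the smooth muscle markers were 11250 and 18748 in CKO, against 13555 and 5270 in WT. Of the 10 adipocyte markers, 9 were highest in CKO replicate 1, against 27% of all genes tested, and Fabp4 in CKO replicate 2. The part of these cells in the levels of the heat shock genes was not tested. None of these markers was at 0 in any library.

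**Figure D4:**
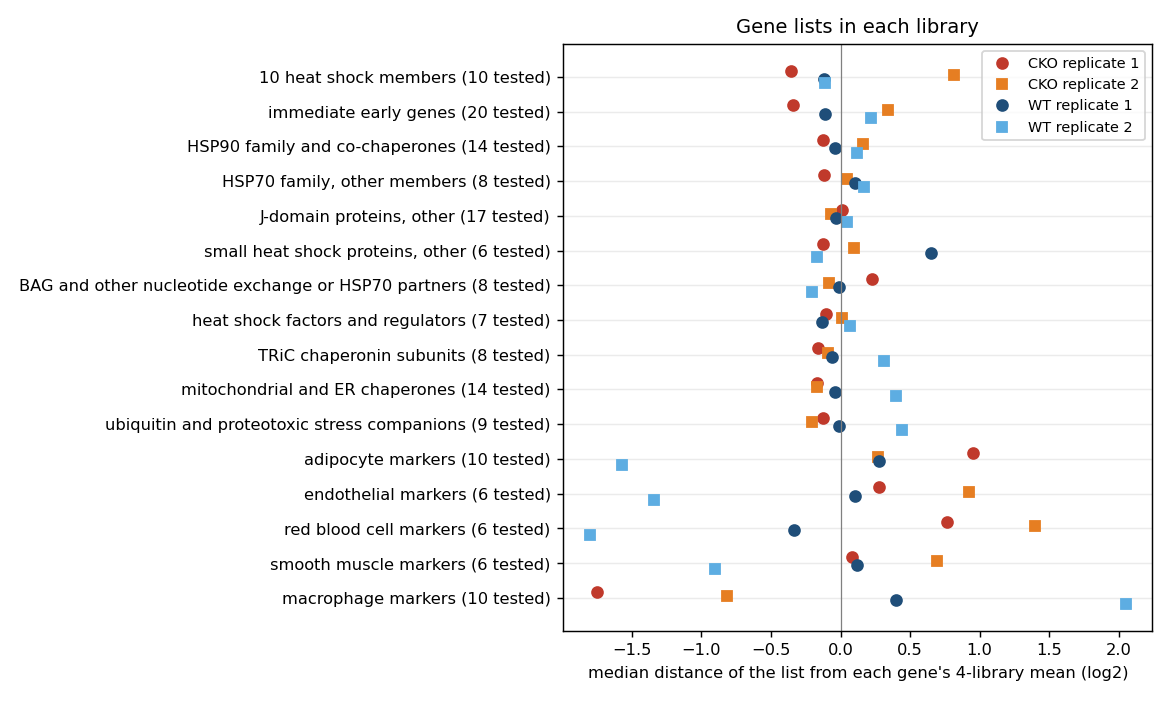
Median distance of each gene list from its genes' means over the 4 libraries (log2, horizontal) for CKO replicates 1 and 2 (red, orange) and WT replicates 1 and 2 (dark and light blue). The 10 heat shock members, picked for the peak of Hspa1a and Hspa1b, are at 0.82 in CKO replicate 2 and at or below -0.11 elsewhere. The 8 without that pair, not drawn, are at 0.611 in CKO replicate 2 and 0.0777 in WT replicate 2. The macrophage markers are at -1.75 and -0.81 in CKO, against 0.40 and 2.05 in WT.

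The genes whose pattern was most like that of Hspa1a and Hspa1b were sought among genes whose deposited log2 values averaged 6 or more. Members, gene models such as Gm and Rik, pseudogenes and the lower rows of repeated symbols were left out. Likeness was the Euclidean distance between log2 levels centred on each gene's mean over the 4 libraries. Edn1, which encodes the vessel-constricting peptide endothelin 1, was nearest at a distance of 1.71, with 77.1 and 358 scaled reads in CKO replicates 1 and 2 and 96.6 and 74.7 in WT replicates 1 and 2. Sytl2 (distance 2.17), Arl4d (2.19), Kif5c, a motor protein of nerve cells (2.25), Klf4 (2.29) and Ino80, a chromatin remodelling ATPase (2.30), came next. In each of the 6, CKO replicate 2 was at least 2.07-fold above the next library. A peak in that library is what the search selects for, so nothing is read from it. None of the 6 reached the 7.31-fold of Hspa1a. The models Gm47118 and Gm13525 overlap Edn1 and Kif5c.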

How the data were processed

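Bulk RNA from isolated fat cells was sequenced in 4 libraries (Illumina NovaSeq, RNA taken with TRIzol and an RNeasy kit, per the labels' protocols). The submitters' processing notes name FastQC, STAR 2.7.5c and the build GRCm38.p6. No source used here names the counter, its gene annotation or its strand setting. The authors deposited log2 values, 1 column per library. Undoing the log2 and subtracting 1 gave whole numbers (within 0.01) for 100% of genes in all 4 columns, with unequal totals, so the values are log2(reads + 1) without scaling. Whole reads were divided by median-ratio size factors (0.998 and 1.10 for CKO replicates 1 and 2, 0.963 and 0.951 for WT replicates 1 and 2), and log2(scaled reads + 1) was tested, which understates differences of low genes.

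Genes whose deposited log2 values averaged 3 or more (16871, all 10 members among them) were fitted with limma 3.58.1 in R 4.3.3 (trend, two-sided, Benjamini-Hochberg over all genes tested). The residual degrees of freedom were 2 and the prior ones 2.92. Every value column was used, and of symbols on more than 1 row (112) the row of highest mean carries the name. GENCODE M21 (GRCm38) held 55094 of the gene identifiers (99.3%), and from it 1-based coordinates are given. Promoter windows are RefSeq's, on GRCm38.p6. The fit was tested on simulated data.

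The members and the lists were chosen with earlier results of these data known. The genes named are the 10 members, the 3 of smallest unadjusted p in each list, Hsf1, Hsp90ab1, Hspd1, Hspa5, Hspa9, the 6 nearest in pattern, Bag1 for its ratio to Bag3, and Prdm1 and Adipoq as context; Plin1 is named as an example of the adipocyte markers, and Fos, Hspa1l, Fabp4 and Hspb11 were added after their values were seen. Other settings tried were no filter, a minimum of 6, no scaling, scaling by total reads, quantile normalisation, no trend, voom weights, a pseudocount of 10, and leaving out every library once.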

Additional observations from a re-analysis of the deposited data

How the results depend on the processing

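The 8 tested members stayed above the adjusted threshold under all 12 other settings, with adjusted p between 0.094 and 1 in limma. No paired analysis was possible because the labels give the groups no shared replicate numbers. Without scaling the median difference of all genes was 0.147, against 0.0154 with it; Hspe1 turned to 0.0066 and the median of the pathway lists to 0.014, both below that shift, and with scaling by total reads that median was -0.034. Genes at an unadjusted p under 0.05 were 859 higher and 855 lower without scaling, against 566 and 1224. With each library left out in turn, the median of the 10 members ran from -0.29 to 0.87 and that of the pathway lists from -0.22 to -0.075. The differences of Hspa8 ran from -0.76 to 0.27, of Hsph1 from -1.93 to 0.35, of Dnaja1 from -0.0016 to 1.19, of Hsp90aa1 from -0.29 to 0.54 and of Hspe1 from -0.29 to 0.040; each changed sign without 1 of the CKO libraries, and the cause was not tested. Genes past the adjusted threshold ran from 0 to 837 higher and from 0 to 938 lower, and the counts above 0 came without WT replicate 1. Leaving out any library, WT replicate 2 included, lends the spread of the other group to the single library left. Nothing is read from these counts, and their cause was not tested. The number of members highest in CKO replicate 2 was 8 or 9 under 6 settings chosen after the values were seen. Depth was not varied; it limits Jund and Hsf2bp, which had as few as 4 and 7 reads in a library.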

Other observations

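Of the other small heat shock genes, 6 were tested, and WT replicate 1 was the highest library for 5 of them, against 11.7% of all genes tested; Hspb11 was highest in WT replicate 2. Hspb7, a heart and muscle family member, had 314 and 1239 scaled reads in CKO replicates 1 and 2 and 2674 and 1368 in WT replicates 1 and 2. Both its CKO libraries lay below both WT libraries, as in 26.8% of all genes tested (log2 difference -1.62, SE 0.74, adjusted p 0.459 in limma). Cryab, which encodes alpha B crystallin and overlaps Hspb2 on the opposite strand, had 1716 and 2974 in CKO, against 5718 and 2564.5 in WT, with overlapping groups (-0.76, SE 0.50, adjusted p 0.525 in limma). Hspb8, the partner of Bag3 in autophagy, had 2256 and 2665 in CKO, against 3237 and 679 in WT (0.72, SE 0.75, adjusted p 0.670 in limma). WT replicate 1 was the highest library for 0 of the 10 heat shock members. Of the 6 small heat shock genes, 2 had a positive and 4 a negative log2 difference, against 51.1% positive over all genes tested. In limma 0 of the 6 passed the adjusted threshold, as for 0% of all genes tested.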
